A study of Mus musculus with 45 samples.

Results

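DNA copy number was compared between mammary tumors of MMTV-HRas mice (n = 5, written MMTV-H-Ras in the sample labels) and of MMTV-PyMT mice (n = 9). These 14 tumors were chosen by the mouse model named for the tumor channel, out of 45 tumors from the whole series. All were invasive primary mammary tumors dissected from female mice, and each tumor had 1 array. The labels and the methods give neither the strain and age of the mice nor whether tumors shared a mouse, so p-values measure the spread between these arrays. They also do not say whether the H-Ras transgene is of mouse or another species.

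Both models use the MMTV promoter, the control region of mouse mammary tumor virus, which drives a transgene in the mammary epithelium. H-Ras is a small GTPase that switches on the Raf, Mek and Erk kinases, phosphatidylinositol 3-kinase and Ral signaling. PyMT is the middle T antigen of polyomavirus, a membrane protein with no enzyme activity of its own that gathers Src family kinases, Shc and phosphatidylinositol 3-kinase, so that it acts partly upstream of Ras. Mammary tumors also gain and lose DNA as they grow, as whole chromosomes that segregate unequally or as pieces that break off, are lost or are amplified.

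In array comparative genomic hybridization, tumor and reference DNA carry different dyes and compete for the same probes, so that the log2 ratio of a probe follows the copy number. In a pure diploid sample, 3 copies against 2 give a log2 ratio of 0.58, 4 copies give 1 and 1 copy gives -1, and normal cells in the tumor pull these values towards 0. The share of normal cells was not measured. Log2 ratios are given here as Cy3 over Cy5, the opposite of the dye labels, which assign Cy5 to the tumor. The direction was taken from the authors' interval table after the values were seen, since all 102 intervals of at least 3 probes and 0.2 in size in these 14 arrays had the opposite sign to Cy5 over Cy3. Of all 821 intervals of these arrays, most of 1 or 2 probes, 798 could be matched to probes used here, and all 798 had the opposite sign. A gain below is therefore a loss if the dyes were as labelled.

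The arrays covered 40666 autosomal probes, and the SD of single probes was 0.18 to 0.30 in 12 arrays, 0.47 in PyMT_11567 and 0.44 in PyMT_11570. The last 2 arrays lay on the same slide, and their single-probe deviations correlated at r = 0.88 against a median of 0.12 over all 91 pairs of arrays. PyMt341 and PyMt342 were the next pair, with r = 0.80 on different slides. No slide and no scan date held tumors of both models, so the model cannot be told apart from slide and date. Haras_An5_3RPT was the only MMTV-HRas array on its slide, and the other MMTV-HRas arrays shared a slide.

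MMTV-HRas tumors carried changes over a larger part of the genome than MMTV-PyMT tumors. The altered share, the percentage of 2057 autosomal bins of 1 Mb that lay in a segment with a mean of at least 0.2 in size, was 36.1% in Haras_An5_3RPT, 26.9% in Hras_An1_3, 11.5% in Hras_An2_3, 27.3% in Hras_An3_3 and 29.4% in Hras_An4_3. Over the 9 MMTV-PyMT tumors the lowest was 0.049% in PyMT_11567, the median 5.44% and the highest 18.7% in PyMt 3. Hras_An2_3 was the one MMTV-HRas tumor within the MMTV-PyMT range, below PyMt 3, PyMt341 with 13.2% and PyMt435 with 12.2%.

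The means were 26.2% ± 9.03 (SD, n = 5) in MMTV-HRas and 7.01% ± 6.57 (SD, n = 9) in MMTV-PyMT tumors. The difference of 19.2 percentage points was larger than the spread between tumors (two-sided exact permutation test over 2002 assignments, p = 0.002, where 0.0005 is the smallest p possible). Gains made up most of it, at 23.1% ± 7.37 (SD, n = 5) against 6.69% ± 6.48 (SD, n = 9), a difference of 16.4 points (exact permutation test, p = 0.0025). With normexp background correction that difference was 11.05 points and did not pass (exact permutation test, p = 0.0544). Lost shares did not differ beyond the spread, at 3.11% ± 6.79 (SD, n = 5) and 0.319% ± 0.572 (SD, n = 9; exact permutation test, p = 0.255), and 1 tumor, Haras_An5_3RPT, held 15.3% lost while the other 4 MMTV-HRas tumors had at most 0.243%.

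**Figure D1:**
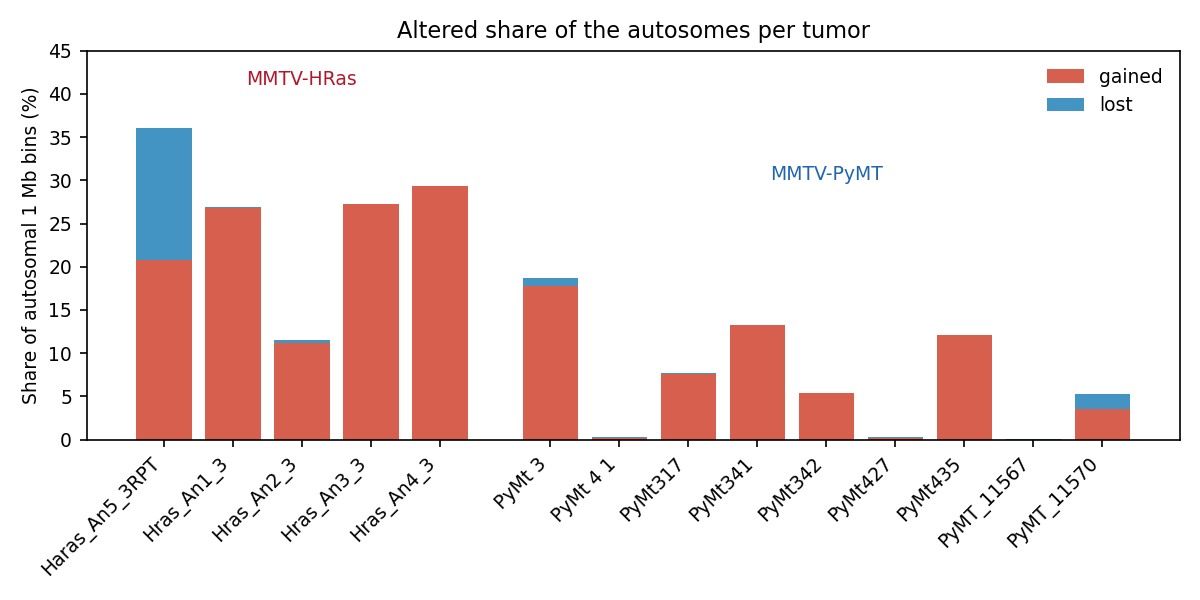
Percentage of the 2057 autosomal 1 Mb bins gained (red) and lost (blue) in each of the 5 MMTV-HRas and 9 MMTV-PyMT tumors, stacked. Among the MMTV-HRas tumors, 4 of 5 stand above every MMTV-PyMT tumor, and Haras_An5_3RPT is the one with a large lost part, 15.3%.

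With centring on the autosomal median the changes were mainly whole chromosomes in both models, and MMTV-HRas tumors had more of them. A chromosome with at least 90% of its probes in gained segments was counted as a whole-chromosome gain, and one with 10 to 90% as a partial gain. Whole-chromosome gains numbered 4 in Haras_An5_3RPT, 5 in Hras_An1_3, 2 in Hras_An2_3, 5 in Hras_An3_3 and 6 in Hras_An4_3, which is 22 in all. The 9 MMTV-PyMT tumors had 11 in all, 4 of them in PyMt 3, 3 in PyMt341, 2 in PyMt435 and 1 each in PyMt317 and PyMt342. No autosome was changed over 10% of its probes in PyMt 4 1, PyMt427 and PyMT_11567, whereas each of the 5 MMTV-HRas tumors had at least 2 gained chromosomes.

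The mean was 4.4 ± 1.52 (SD, n = 5) whole-chromosome gains per MMTV-HRas tumor and 1.22 ± 1.48 (SD, n = 9) per MMTV-PyMT tumor, a difference of 3.18 (two-sided exact permutation test, p = 0.00549). This call was lost with a gain threshold of 0.3 in place of 0.2, where the difference was 1.89 (exact permutation test, p = 0.104). It was also lost with normexp background correction, at 1.8 (p = 0.149), and with running medians in place of segments, at 1.89 (p = 0.104, exact permutation test for both). The 3 whole-chromosome losses of the comparison, of chromosomes 4, 12 and 16, were all in Haras_An5_3RPT (exact permutation test of the difference, p = 0.357). Partial changes were few, 2 in Haras_An5_3RPT, 1 in PyMt 3 and 5 in the noisier PyMT_11570, and the other 11 tumors had 0. They depended on the centring. With chromosomes 3 and 13 as the centre Haras_An5_3RPT had 4, PyMT_11570 6 and PyMt342 1. With density-peak centring PyMT_11570 had 9, PyMt341 2 and PyMt342 1. Under that centring MMTV-PyMT tumors had a mean of 1.33 partial changes and 1.33 whole-chromosome changes per tumor, so that whole chromosomes did not prevail there.

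Of the changed chromosomes of a tumor, 95.6% ± 9.94 (SD, n = 5) were changed as a whole in MMTV-HRas and 80% ± 40 (SD, n = 6) in the MMTV-PyMT tumors with any change. That difference was within the spread (exact permutation test over 462 assignments, p = 0.727), and without PyMT_11570 it was -0.44 points. In all, 10 different autosomes were gained in at least 1 of the 5 MMTV-HRas tumors and 8 in at least 1 of the 9 MMTV-PyMT tumors, or 12 and 9 with chromosomes 3 and 13 as the centre described below. Chromosomes 3, 5, 7, 9 and 13 were changed over 10% or more of their probes in none of the 14 tumors, though they held shorter called segments.

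**Figure D2:**
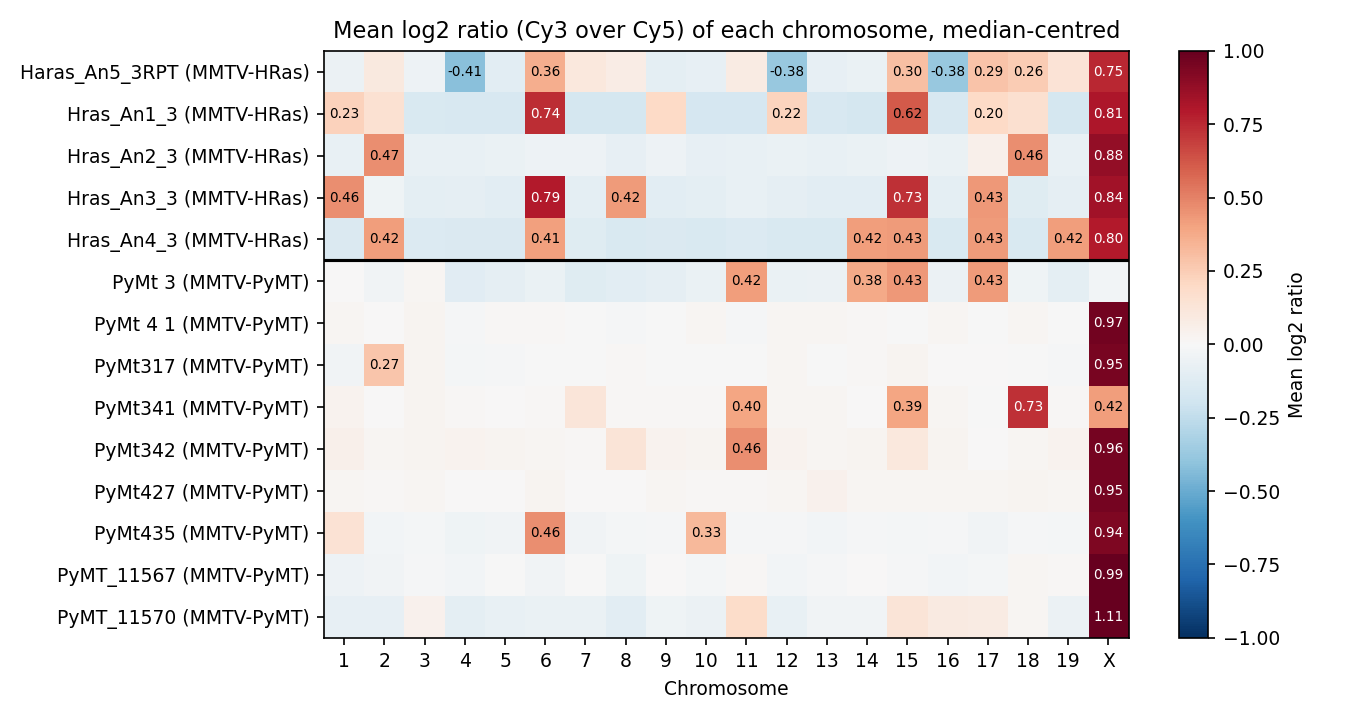
Mean log2 ratio (Cy3 over Cy5) of every chromosome in every tumor after centring on the autosomal median, on a color scale from -1 (blue) to 1 (red), with values of at least 0.2 in size printed. Chromosomes 6, 15 and 17 are red in 4 of the 5 MMTV-HRas rows, chromosome 11 in PyMt 3, PyMt341 and PyMt342, and most other chromosomes of the MMTV-HRas rows lie slightly below 0.

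Within a tumor, gained chromosomes lay at 1 height or at separate heights. The 6 gained chromosomes of Hras_An4_3 had mean log2 ratios between 0.41 and 0.43, and the 2 of Hras_An2_3 both lay between 0.46 and 0.47. In Hras_An3_3 chromosomes 6 and 15 stood at 0.79 and 0.73, while its gained chromosomes 1, 8 and 17 lay at 0.46, 0.42 and 0.43. Hras_An1_3 showed the same order, with 0.74 and 0.62 for chromosomes 6 and 15 and 0.23, 0.22 and 0.20 for chromosomes 1, 12 and 17. Chromosomes 6 and 15 were thus the highest in both tumors. The 4 of Haras_An5_3RPT were spread from 0.26 to 0.36. Among MMTV-PyMT tumors PyMt341 had such a step, at 0.73 for chromosome 18 against 0.40 and 0.39 for chromosomes 11 and 15, while the 4 gained chromosomes of PyMt 3 lay between 0.38 and 0.43. The 2 of PyMt435 lay at 0.46 on chromosome 6 and 0.33 on chromosome 10.

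The level of chromosomes 3 and 13 differed between the models. These chromosomes, of which no tumor had 10% or more of the probes changed, had a median log2 ratio of -0.07, -0.15, -0.05, -0.12 and -0.14 in the MMTV-HRas tumors, in the order above, and of -0.04 to 0.03 in the MMTV-PyMT tumors, a difference of -0.09 (exact permutation test, p = 0.0005, the smallest possible). Both chromosomes were picked after the data were seen, so that this p-value is a description. The part of gains, slide or scan date in the difference was not tested. Because of it, levels were also computed with each array centred on chromosomes 3 and 13, a choice made after the data were seen. Under it the altered share differed by 23.6 points (exact permutation test, p = 0.002), and the gained share by 21.1 points (exact permutation test, p = 0.002). Whole-chromosome gains numbered 4, 8, 2, 5 and 6 in the MMTV-HRas tumors and stayed at 11 in all in MMTV-PyMT, where Hras_An1_3 added chromosomes 2, 9 and 18 at 0.30, 0.34 and 0.31. Chromosomes 3, 5 and 13 were then the ones with no change over 10% or more of their probes in any tumor.

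The difference between the models was largest on chromosome 6. It carries Met, Cav1, Braf and Ccnd2, and its mean log2 ratio was 0.36, 0.74, -0.05, 0.79 and 0.41 in the MMTV-HRas tumors, in the order above. In MMTV-PyMT tumors it was 0.46 in PyMt435 and between -0.07 and 0.02 in the other 8. The difference of 0.41 passed the test (0.45 ± 0.34, SD, n = 5, against 0.04 ± 0.16, SD, n = 9, exact permutation test, adjusted p = 0.0308). Chromosome 17, with Tsc2 and Ccnd3, was at 0.29, 0.20, 0.05, 0.43 and 0.43, against 0.43 in PyMt 3 and -0.03 to 0.08 in the other MMTV-PyMT tumors. That difference was 0.23, smaller than those of chromosomes 15 and 11 below, and it passed the test (exact permutation test, adjusted p = 0.0308).

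These 2 chromosomes were the only ones called higher in MMTV-HRas, 10.5% of the 19 autosomes tested, and 6 were called lower, 31.6%. With chromosomes 3 and 13 as the centre the difference was 0.50 for chromosome 6 and 0.32 for chromosome 17, and neither passed (adjusted p = 0.0506 for both, exact permutation test), nor did any other autosome. At an unadjusted p under 0.05 that centring left 4 higher and 1 lower. The call for chromosome 6 was also lost, at adjusted p between 0.0506 and 0.0768 (exact permutation test), without Hras_An1_3, Hras_An3_3, Hras_An4_3 or PyMT_11570. For chromosome 17 it was lost on leaving out 1 tumor in 10 of 14 cases, with adjusted p up to 0.0812. With the slide as a random block, limma called 4 autosomes higher, 2, 6, 15 and 17, and 7 lower, the 6 above and chromosome 11.

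Chromosomes 15 and 2 were higher by values that did not pass the test. Chromosome 15, which carries Myc, Ptk2 and Wnt1, lay at 0.30, 0.62, -0.05, 0.73 and 0.43 in MMTV-HRas tumors. PyMt 3 with 0.43 and PyMt341 with 0.39 were the highest MMTV-PyMT tumors, and the others were between -0.02 and 0.13. All MMTV-PyMT tumors thus lay within the MMTV-HRas range. The difference was 0.29 (exact permutation test, adjusted p = 0.0811), and it was 0.40 with adjusted p = 0.0166 without Hras_An2_3. Chromosome 2, with Src and Zfp217, lay at 0.10, 0.15, 0.47, -0.05 and 0.42 against 0.27 in PyMt317 and at most 0.02 in the other MMTV-PyMT tumors, a difference of 0.20 (exact permutation test, adjusted p = 0.0559). Without PyMt317 that difference was 0.24 with adjusted p = 0.0169.

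Chromosome 11 went the other way. It carries Trp53, Erbb2 and Brca1, and it was at 0.42 in PyMt 3, 0.40 in PyMt341, 0.46 in PyMt342 and 0.19 in PyMT_11570, and at -0.01 to 0.01 in the other 5 MMTV-PyMT tumors. MMTV-HRas tumors lay between -0.17 and 0.09. With chromosomes 3 and 13 as the centre Haras_An5_3RPT was at 0.15, next to PyMT_11570 at 0.16. The difference of -0.24 between the models did not pass (exact permutation test, adjusted p = 0.0617), and it was -0.15 with chromosomes 3 and 13 as the centre. Without Haras_An5_3RPT it was -0.28 (exact permutation test, adjusted p = 0.0435).

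The 6 autosomes called lower in MMTV-HRas differed by less. They were chromosome 16 with -0.18, 4 with -0.15, 10 with -0.14, 3 with -0.12, 13 with -0.11 and 5 with -0.10, at adjusted p from 0.00316 to 0.019 (exact permutation test). With chromosomes 3 and 13 as the centre their differences shrank to between -0.09 and -0.01 and none passed. For chromosomes 3 and 13 themselves this follows from the centring. Centring on the density peak of each array likewise left 0 autosomes called in either direction, against 3 higher and 3 lower at an unadjusted p under 0.05.

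**Figure D3:**
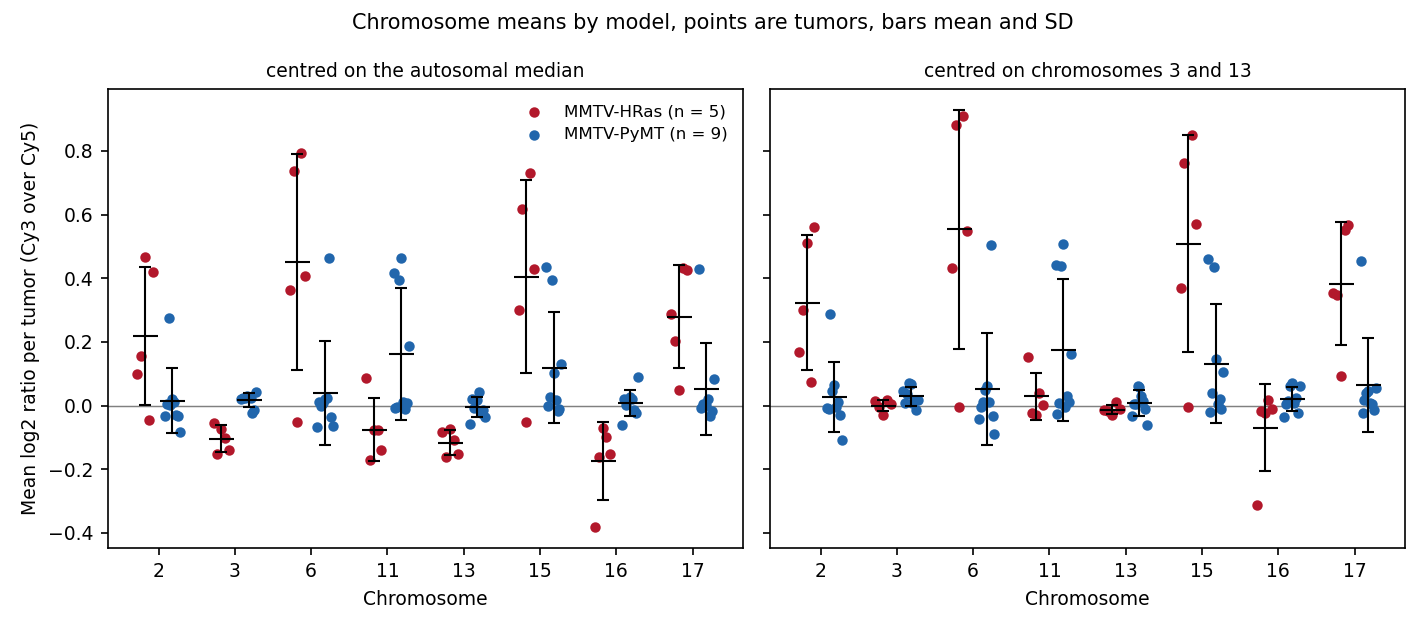
Mean log2 ratio (Cy3 over Cy5) of 8 chromosomes in each tumor (points, red MMTV-HRas, blue MMTV-PyMT) with the mean and SD of each model (bars), centred on the autosomal median at the left and on chromosomes 3 and 13 at the right. On chromosome 6 the means are 0.45 and 0.04 at the left and 0.55 and 0.05 at the right, while the red points of chromosomes 3, 13 and 16, apart from 1 tumor on 16, lie near 0 only at the right.

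Counted by tumor, chromosome 6 was gained in 4 of 5 MMTV-HRas tumors (80%, with a 95% interval of 28.4 to 99.5% by the exact Clopper-Pearson method) and 1 of 9 MMTV-PyMT tumors (11.1%, interval 0.281 to 48.2%). Chromosome 17 had the same counts, 4 of 5 and 1 of 9, but its gain in an MMTV-PyMT tumor was in PyMt 3 and that of chromosome 6 in PyMt435. For each, Fisher's exact test gave p = 0.023 and an adjusted p of 0.437 over 38 pairs of autosome and state. Chromosome 15 was gained in 4 of 5 and 3 of 9 tumors, and chromosome 11 in 0 of 5 (0%, interval up to 52.2%) and 4 of 9 (44.4%, interval 13.7 to 78.8%; Fisher's exact test, p = 0.221).

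None of the 38 pairs passed after adjustment (0%), and the 2 gains of chromosomes 6 and 17 were the only ones at an unadjusted p under 0.05 by Fisher's exact test. The chromosomes were gained together. The same 4 MMTV-HRas tumors had 6, 15 and 17 gained, and the remaining tumor, Hras_An2_3, had 2 and 18. Of those 4 tumors, Hras_An4_3 had chromosome 2 gained as well, and Haras_An5_3RPT chromosome 18. In the authors' own intervals the counts were 4 of 5 and 1 of 9 for chromosomes 6 and 17, 4 of 5 and 2 of 9 for 15, and 0 of 5 and 3 of 9 for 11. Of the less frequent gains, chromosome 1 (Hras_An1_3 and Hras_An3_3), chromosome 19 (Haras_An5_3RPT and Hras_An4_3), chromosome 8 (Hras_An3_3) and chromosome 12 (Hras_An1_3) were seen in the MMTV-HRas tumors named and in no MMTV-PyMT tumor, and chromosome 10 was seen in PyMt435 and in no MMTV-HRas tumor. With chromosomes 3 and 13 as the centre chromosome 8 was gained in 2 MMTV-HRas tumors and 1 MMTV-PyMT tumor, and with density-peak centring chromosome 8 was gained in 2 and chromosome 12 in 1 MMTV-PyMT tumor. With counts of 1 or 2 per model these are descriptions.

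Along the genome the pattern followed these chromosomes. In 300 bins at least 4 of the 5 MMTV-HRas tumors were gained, and these were all 132 bins of chromosome 6, all 85 of chromosome 15 and all 83 of chromosome 17. At least 4 of the 9 MMTV-PyMT tumors were gained in 11 bins, 8 of them on distal chromosome 11, 2 on chromosome 15 and 1 on chromosome 13. No single bin passed between the models (limma, 0% of 2057 bins called higher and 0% lower, smallest adjusted p = 0.0616). At an unadjusted p under 0.05, 375 bins were higher in MMTV-HRas (18.2%) and 264 lower (12.8%). The higher ones included 129 of 132 bins on chromosome 6, 104 of 156 on 2, 67 of 85 on 15 and 65 of 83 on 17, and the lower ones 64 of 106 on chromosome 11.

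With chromosomes 3 and 13 as the centre 360 bins passed as higher (limma, adjusted p under 0.05) and 0 as lower, with 18 lower at an unadjusted p under 0.05. Of the 360, 121 were on chromosome 6, 118 on 2, 61 on 17 and 44 on 15. Leaving out 1 tumor gave calls on the autosomal median too. Without Hras_An2_3 235 bins were higher and 57 lower, without PyMt435 114 and 13, without PyMt 3 97 and 14, and without Hras_An3_3 4 and 1.

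**Figure D4:**
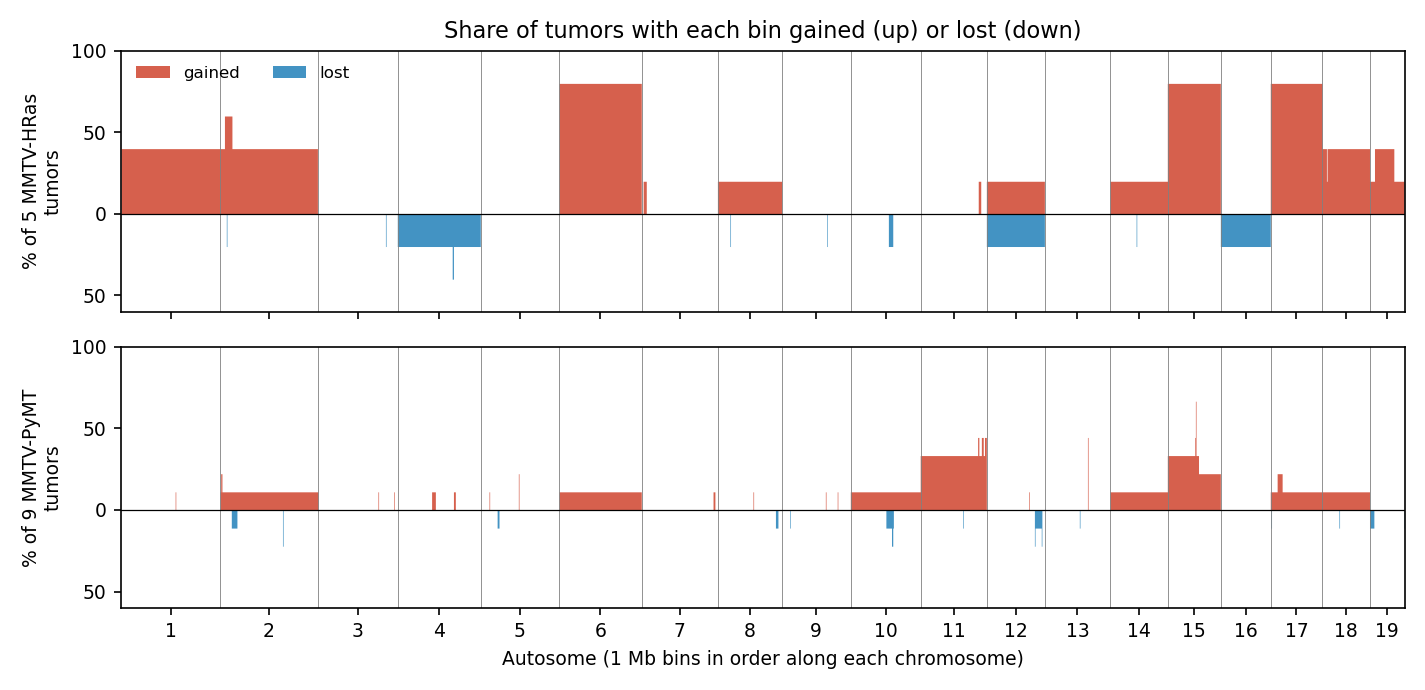
Percentage of tumors with each autosomal 1 Mb bin gained (red, upwards) or lost (blue, downwards), MMTV-HRas above and MMTV-PyMT below, with bins in genome order. Chromosomes 6, 15 and 17 reach 80% of the MMTV-HRas tumors over their whole length, and chromosome 11 reaches 44.4% of the MMTV-PyMT tumors in its distal bins.

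Losses set Haras_An5_3RPT apart from the other MMTV-HRas tumors. It was also the only MMTV-HRas tumor on its slide, so that tumor and slide cannot be told apart here. Its chromosome 4, which carries Cdkn2a, lay at -0.36 up to position 116625332 (mm8) and at -0.48 beyond it. Chromosomes 12 and 16 lay at -0.38 each, and 15.8% of the probes of chromosome 10 were in a segment at -0.25, or -0.18 with chromosomes 3 and 13 as the centre. The other 4 MMTV-HRas tumors lay between -0.16 and -0.08 on chromosome 4. Of the MMTV-PyMT tumors, PyMt 3 had 17.2% of the probes of chromosome 12 in a segment at -0.21, which was not called with either other centring, and PyMT_11570 had 12.3% of chromosome 2, 17.9% of chromosome 10 and 22.2% of chromosome 19.

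Breakpoints, the ends of segments within a chromosome, did not differ between the models beyond the spread. They numbered 50, 18, 90, 37 and 34 in the MMTV-HRas tumors, in the order above, and 46 to 121 in the MMTV-PyMT tumors, with a median of 62. The means were 45.8 ± 27.2 (SD, n = 5) and 72.4 ± 23.0 (SD, n = 9), a difference of -26.6 within the spread (two-sided exact permutation test, p = 0.0759). It was -37.7 without Hras_An2_3 (exact permutation test, p = 0.00979). Many segments were short, up to 58 of 140 autosomal segments with fewer than 10 probes in PyMt435, and between segments of at least 20 probes the difference was -14.4 (exact permutation test, p = 0.0829).

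Among segments of at least 32 probes, the highest mean log2 ratios of the comparison were on distal chromosome 7 in the MMTV-PyMT tumor PyMt341. This region held the mouse Hras1 gene. Single probes elsewhere exceeded these means, such as the Myc probe with 3.34 in PyMt435. A segment of 108 probes over 2.04 Mb, chr7:139088198-141129697 (mm8), had a mean log2 ratio of 2.75, and a second one of 32 probes over 0.712 Mb, chr7:141483295-142194883, had 2.77. In the other 13 tumors the same stretches lay between -0.19 and 0.05. The 30 probes between the segments, over 0.354 Mb with Deaf1 and Cd151, averaged -0.05 in PyMt341, with none above 0.21. The amplified DNA was therefore in 2 blocks of equal height around a stretch at the level of the rest of the chromosome. The authors' intervals listed both, at 2.70 and 2.73.

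The first block covers 60 gene names of the array, among them Hras1, the Ras-association gene Rassf7, the mitochondrial deacetylase Sirt3, the interferon regulator Irf7 and the inositol phosphatase Inpp5a. The second covers 18, among them Dusp8, a MAP kinase phosphatase, and Ctsd, the lysosomal protease cathepsin D. Its near edge lay within the probes of Ap2a2, a subunit of the clathrin adaptor, whose probe at 141463325 was at -0.06 and whose probe at 141483295 was at 2.57. Igf2 and Cd81, further out, were not amplified, with -0.46 and -0.03 for the 2 Igf2 probes and 0.24 and 0.51 for those of Cd81.

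**Figure D5:**
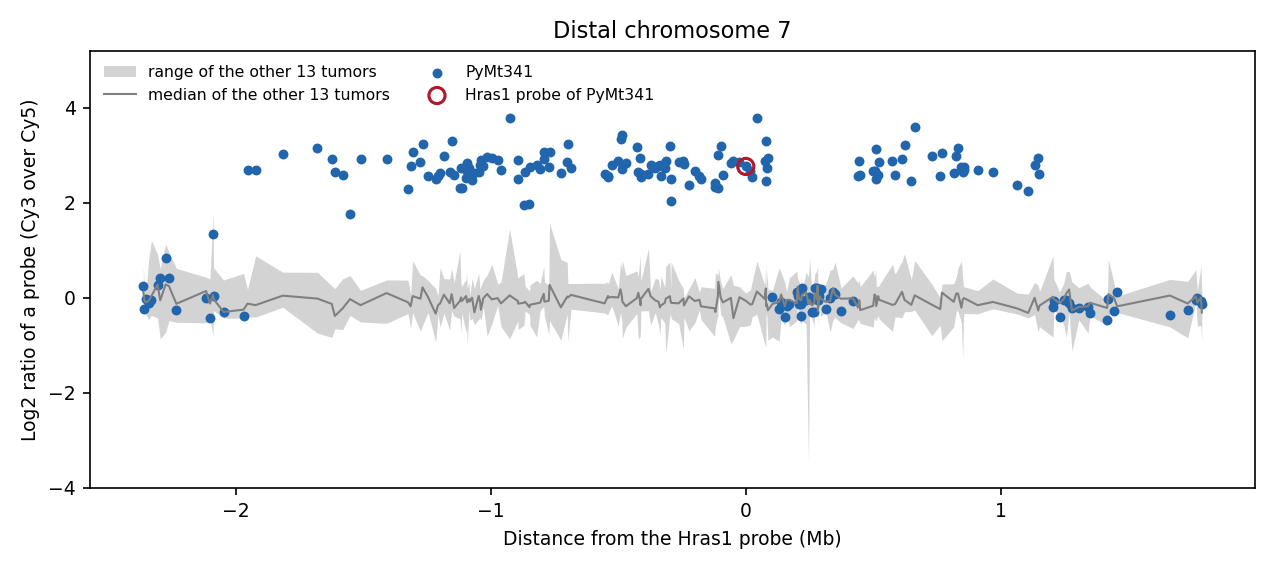
Log2 ratio (Cy3 over Cy5) of single probes on distal chromosome 7 against their distance from the Hras1 probe, for PyMt341 (blue points, Hras1 probe circled) with the range (grey band) and median (grey line) of the other 13 tumors. PyMt341 lies near 2.75 over both amplified blocks and near 0 between them and outside, where the other tumors lie throughout.

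The other segments on part of an autosome that reached 0.8 in size over 10 probes or more were deletions, with 1 exception. PyMt 3 had one on chromosome 4, chr4:132722438-133287235 (mm8), at -1.04 over 26 probes, with Rps6ka1, a kinase downstream of Erk, and Lin28. PyMT_11567 had one on chromosome 16, chr16:17383469-17755111 (mm8), at -0.99 over 27 probes, with the adaptor gene Crkl, where PyMT_11570 was at -0.46. PyMT_11567 and PyMT_11570 shared a 10-probe segment on chromosome 7 at -1.19 and -1.34 that the authors' intervals do not list. The exception, and the one such segment in an MMTV-HRas tumor, was the distal end of the gained chromosome 15 of Hras_An3_3. There 78 probes stood at 0.83, next to 294 probes at 0.45, so that this gain had steps within it.

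Hras1 and Nras were not called different between the models. The 1 probe of Hras1 was at -0.04, -0.17, -0.06, 0.04 and 0.09 in the MMTV-HRas tumors, so that it showed no added copies there, and the transgenes have no probe named for them, so that the arrays do not check the labels. In MMTV-PyMT tumors Hras1 was at 2.76 in PyMt341 and between -0.60 and 0.10 in the other 8, and the difference was -0.21 ± 0.39 (SE, limma, adjusted p = 0.798). Nras on chromosome 3 differed by -0.08 (limma, adjusted p = 0.758).

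Of the 21 measured genes for Ras proteins and their effector cascade, 0 were called by limma against 0.025% of all 20034 gene names called higher and 0.0399% called lower. At an unadjusted p under 0.05, 2 were higher and 2 lower, where 10.4% of all names were higher and 9.72% lower. The higher ones included the Raf kinase gene Braf on chromosome 6 (0.35), and the lower ones the scaffold gene Ksr1 on chromosome 11 (-0.33). The median over the 21 was 0.02, beside -0.01 over all names.

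Among 21 measured Ras regulators and feedback genes, 0 were called (limma), 1 was higher at an unadjusted p under 0.05, the exchange factor Rasgrp1 on chromosome 2 (0.34), and 1 lower, Spred2 on chromosome 11 (-0.37). Their median difference was -0.08. Of all names, 10.4% were higher and 9.72% lower at that level. The 30 genes for proteins that bind middle T, with their cascade, had 0 called (limma), 1 higher and 2 lower at that level, and a median of -0.03. Tsc2, a brake on mTOR signaling on chromosome 17, was higher by 0.58 (limma, adjusted p = 0.0547). Pik3ca, the catalytic subunit of phosphatidylinositol 3-kinase, had -0.70 and the transcriptional coactivator gene Wwtr1 -0.29, both on chromosome 3. Src differed by 0.20 (limma, adjusted p = 0.307).

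The 24 measured cell cycle and p53 genes had 0 called (limma), with 3 higher and 2 lower at an unadjusted p under 0.05, beside 10.4% and 9.72% of all names. The cyclin genes Ccnd2 on chromosome 6 (0.51) and Ccnd3 on chromosome 17 (0.32) were higher, with Cdk6 on chromosome 5 (0.20), and Cdkn1a and Trp63 lower (-0.38 and -0.45). Trp53 differed by -0.07 and Cdkn2a by 0.13 (limma, adjusted p = 0.771 and 0.566). Cdkn2a was at -0.76 in PyMt435, where 1 of its 2 probes was at -1.25 and the other at -0.27.

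Of 32 measured oncogenes often amplified in mammary tumors, 0 were called (limma), 6 were higher and 4 lower at an unadjusted p under 0.05, beside 10.4% and 9.72% of all names. The higher ones were Cav1 (0.45) and the receptor kinase gene Met (0.32) on chromosome 6, Wnt1, Ptk2 and Eif3s6 on chromosome 15 (0.32, 0.35 and 0.39) and Zfp217 on chromosome 2 (0.55). Erbb2, Egfr and Rps6kb1 on chromosome 11 (-0.35, -0.35 and -0.50) and Erbb3 on chromosome 10 (-0.29) were the lower ones. Ptdsr (Jmjd6), a histone demethylase gene on distal chromosome 11, was at 0.67 in PyMt 3, 0.79 in PyMt341 and 1.04 in PyMt342, and at -0.50 to 0.23 in all other tumors of either model. In PyMT_11570 the probe was at -0.26, although it lies in a gained segment of 148 probes at 0.52. The Ptdsr difference was -0.29 (limma, adjusted p = 0.514).

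The remaining lists were alike, beside 10.4% of all names higher and 9.72% lower at an unadjusted p under 0.05 (limma). The 17 measured tumor suppressors of mammary tumors had 0 called (limma), 1 higher at an unadjusted p under 0.05, Gata3 on chromosome 2 (0.35), and 1 lower, Brca1 on chromosome 11 (-0.39). The 14 luminal and basal lineage genes had 0 called (limma), 0 higher and 2 lower at that level, Stat5b (-0.26) and Xbp1 (-0.38), both on chromosome 11. Of the 28 list genes at an unadjusted p under 0.05, 26 had the sign of the difference of the chromosome they belong to, and Cdk6 and Cdkn1a had the opposite sign. A gene is part of its chromosome mean, so this is a description.

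Myc, on chromosome 15, is measured by 1 probe at 61816154 (mm8) and did not follow its chromosome in most MMTV-PyMT tumors. In MMTV-HRas tumors it was at 0.25, 0.56, 0.10, 1.20 and 0.44, which ranks these tumors in the same order as their chromosome 15 means. In MMTV-PyMT tumors it was at 0.79 in PyMt 3, 0.66 in PyMt 4 1, 0.65 in PyMt317, 1.78 in PyMt341, 2.56 in PyMt342, 2.59 in PyMt427 and 3.34 in PyMt435, and at -0.06 and -0.18 in PyMT_11567 and PyMT_11570. It thus stood above 0.5 in 7 of 9 MMTV-PyMT tumors, most of which had no whole-chromosome gain of 15, and the groups overlapped. A gain was called at the probe in 6 of the 9 tumors, PyMt 3, PyMt341, PyMt342, PyMt427, PyMt435 and PyMT_11570. In PyMT_11570 the probe itself was at -0.18, within a gained segment at 0.23. PyMt 4 1 and PyMt317 were not called there. Of the MMTV-HRas tumors, all but Hras_An2_3 were called at the probe. In PyMt342, PyMt427 and PyMt435 the called stretch was short, with the share of chromosome 15 probes called gained at 0.368%, 0.307% and 0.307%.

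The Myc difference was -0.84 ± 0.50 (SE, limma, adjusted p = 0.366). A probe of the transcript AK043790, at a distance of 0.148 Mb, was at 1.13 in PyMt341, 0.94 in PyMt342, 0.46 in PyMt427 and 0.25 in PyMt435, the 3 AK043790 probes after it lay between -0.15 and 0.16 in these tumors, and the one at 62063382 was at 0.66, 0.48, 0.28 and 0.16. That probe was at 0.86 in PyMt 3 and reached 1.06 in Hras_An3_3. The arrays of PyMt341, PyMt342, PyMt427 and PyMt435 deviated together at single probes, with r = 0.80 for PyMt341 and PyMt342 and 0.57 for PyMt427 and PyMt435. The part of this in the Myc values was not tested.

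Only 13 of 20034 gene names passed in the fit over genes (limma, adjusted p under 0.05), 5 higher and 8 lower in MMTV-HRas, and 10 of the 13 have 1 probe. The higher ones included Lag3, an immune checkpoint receptor (0.73), Tuba3, a tubulin (0.88), and BC034128 (1.12) on chromosome 6, and AK179277 on distal chromosome 15 (0.67). Lag3 was at 0.33 to 0.82 in the 5 MMTV-HRas tumors, 0.42 in Hras_An2_3 included, which had no gain of chromosome 6, and at -0.40 to 0.11 in MMTV-PyMT tumors.

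The lower ones were Xkr9 on chromosome 1 (-1.10), AK153771, Ubqln1 and AK013191 on 13 (-0.83, -0.75 and -0.52), the cytokine gene Il13 on 11 (-0.70), BC048764 on 3 (-0.65), AK089921 on 9 (-0.64) and Rnf32 on 5 (-0.60). Xkr9 was at -0.05 in Haras_An5_3RPT and -1.41 to -0.77 in the other 4 MMTV-HRas tumors, against -0.19 to 0.76 in MMTV-PyMT, so that the groups overlapped at 1 tumor. Ubqln1, a ubiquitin-binding adaptor gene with 2 probes, was at -0.74 to -0.18 against -0.02 to 0.82. Of the 13, BC034128, AK153771, AK089921, Xkr9 and Ubqln1 differed by at least 0.5 more than their 1 Mb bin, so that most of the difference at BC034128, whose bin differed by 0.50, and at AK153771, whose bin differed by -0.25, went beyond that of their neighbours.

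Next in rank, and not past the threshold, were, among others, Gtf2h5 and Syngr3 on chromosome 17 (0.97 and 0.56), BC023792 on 6 (0.72) and AK020972 on 15 (0.81) on the higher side. On the lower side they were BC022224 on chromosome 11 (-1.03) and Olfr476 on 7 (-0.72), with adjusted p from 0.0523 to 0.053 (limma).

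These calls, most of them on 1 probe, depend on the arrays, centring and names used. Among the 10714 names with at least 2 probes, 0 passed in either direction (limma), with 1164 higher and 1156 lower at an unadjusted p under 0.05. With centring on the density peak 0 passed as well (limma), with 1972 higher and 1707 lower at that level. Without PyMT_11567 and PyMT_11570, 0 passed as higher and 1 as lower (limma), with 1992 and 2180 at that level. The differences of the called names kept their sign and most of their size there, such as 0.79 for Lag3 and -0.98 for Xkr9. With chromosomes 3 and 13 as the centre 344 passed as higher and 47 as lower (limma).

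Chromosome X was outside the bins. Its mean log2 ratio was 0.75 to 0.88 in the 5 MMTV-HRas tumors and 0.94 to 1.11 in 7 MMTV-PyMT tumors, with PyMt341 at 0.42 and PyMt 3 at -0.03. With chromosomes 3 and 13 as the centre it was 0.82 to 0.96 in the 5 and 0.94 to 1.08 in the 7, so that these overlapped. The means of the models did not differ beyond the spread (exact permutation test, p = 0.971). The sex of the reference mice is not given, so that the level shared by most arrays cannot be told apart from a difference in sex between tumor and reference.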

How the data were processed

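Mouse tumor DNA was hybridized against pooled spleen DNA on 2-color Agilent 44K arrays (500 ng of each DNA, per the methods). The authors deposited scanner output with raw and processed intensity in both dyes and the log10 ratio of processed red (Cy5) over green (Cy3). A deposited interval table holds mean log2 ratios with the number of probes (a count) and was used to find the direction and to compare. Single-model tables of the authors were not used. The labels name Feature Extraction 10.7 and the file headers 9.5.1.1, and positions are in mm8.

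The log10 ratios were turned to log2, Cy3 over Cy5, averaged over spots of a probe without outlier flags and each array was centred on its autosomal median. Arrays give no read depth, and the number of arrays limits the precision. Each array was split into segments by circular binary segmentation (split statistic above 6, at least 5 probes) and called at 0.2. Bins of 1 Mb needed 3 probes and took the state of most of their probes.

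Models were compared by two-sided exact permutation over tumors, Fisher's exact test and, for bins and gene names, limma 3.58.1 in R 4.3.3, with Benjamini-Hochberg adjustment. Python 3.11.15, numpy 2.4.6 and scipy 1.17.1 were used, and the steps were tested on simulated data. Clopper-Pearson intervals are at 95% and cover counting error only. Genes named were a fixed set of 10, the 10 lowest adjusted p in each direction, names differing from their bin by at least 0.5 and members of 7 lists. Of 20034 gene names, 14680 matched RefSeq symbols, and 159 of 176 list genes were measured. The tumors and lists were chosen with earlier results of these data known. Values of some of these genes are not reported here. Exons and introns were not used here, and no probe sequence is shown.

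The alternatives were other background corrections, centrings, thresholds, bins, samples, arrays and dye directions. Centring on chromosomes 3 and 13, leaving out PyMT_11567 and PyMT_11570 together, density-peak centring of gene names and the breakpoints between segments of at least 20 probes were added after the data were seen.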

Additional observations from a re-analysis of the deposited data

Results flagged for a closer look

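In 21 of 115 sets of values a single tumor lay apart from the others by a gap larger than Dixon's 95% critical value. Each set was 1 measure in 1 model. For independent, normally distributed values chance gives about 1 in 20. Some sets here are counts that are mostly 0, or a chromosome and genes on it. That rate therefore does not apply, and the 21 are a description. Haras_An5_3RPT stood apart from the other MMTV-HRas tumors with a lost share of 15.3%, 3 whole-chromosome losses, 1 partial gain, 1 partial loss and a log2 ratio of -0.41 on chromosome 4. Hras_An1_3 stood apart on chromosome 9 with 0.20, Hras_An4_3 on chromosome 14 with 0.42 and Hras_An2_3 at Ubqln1 with -0.74.

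Among MMTV-PyMT tumors, PyMt341 stood apart with 2.76 at Hras1 and 0.73 on chromosome 18. PyMt435 did so with 0.46 on chromosome 6, with 0.44 at Cav1 and 0.50 at Met on that chromosome, with 0.33 on chromosome 10 and with -0.76 at Cdkn2a. PyMt 3 stood apart on chromosomes 14 and 17 with 0.38 and 0.43, PyMt317 on chromosome 2 with 0.27 and PyMt342 on chromosome 8 with 0.13. PyMT_11570 had 2 partial gains and 3 partial losses, and it is one of the 2 arrays with the widest probe spread, at an SD of 0.44.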

How the results depend on the processing

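The altered share stayed higher in MMTV-HRas and past the threshold in the other settings run, and without any 1 tumor (16.8 to 22.9 points). The gained share differed by 11.05 points with normexp background correction (exact permutation test, p = 0.0544). With dyes as labelled, gains and losses change places: gained share 2.79, lost share 16.4, whole-chromosome gains 0.6, losses 3.18, and -0.20, -0.41, 0.24, -0.29 and -0.23 for chromosomes 2, 6, 11, 15 and 17, with 6 autosomes higher and 2 lower. With running medians the lost share differed by 6.88 points, whole-chromosome gains by 1.89 and partial losses by 3.6. Whole-chromosome gains differed by 1.8 with normexp and by 1.89 at a segment mean of 0.3, and the call was lost with both and with running medians. The difference in partial gains, -0.02, was 0.4 with normexp, 0.47 centred on chromosomes 3 and 13 or with a split statistic of 5, 0.49 at 0.3, and 0.2 with protocol CGH-v4_91 only or without PyMT_11567 and PyMT_11570. That in partial losses, -0.24, was 0.53 with normexp and 0.2 and 0.057 with those samples. The share of whole changes differed by -4.44 and -0.44 points with them. The cause was not tested.

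The 2 autosomes called higher and 6 lower became 0 and 0 with density-peak centring, with chromosomes 3 and 13 and with normexp, 1 higher with CGH-v4_91 only, 0 higher without PyMT_11567 and PyMT_11570, and 4 higher with slide as a random block. Bins called were 360 higher on chromosomes 3 and 13, 90 higher and 5 lower with all 45 arrays, and 22 and 1 with CGH-v4_91 only. Gene names called were 0 and 0 with the density peak and with at least 2 probes, 344 and 47 with chromosomes 3 and 13, and 0 and 1 without PyMT_11567 and PyMT_11570.

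Without 1 tumor at a time, the ranges were 0 to 235 bins higher and 0 to 57 lower, 0 to 644 gene names higher and 0 to 183 lower, 0 to 3 autosomes higher and 5 to 8 lower, 14.9 to 19.4 points of gained share, -0.25 to 3.57 of lost share (negative without Haras_An5_3RPT), 2.78 to 3.78 whole-chromosome gains, 0 to 0.75 losses, -0.22 to 0.2 partial gains, -0.44 to 0.075 partial losses, -0.44 to 20 points of whole changes and -37.7 to -19.7 breakpoints. Chromosome differences were 0.14 to 0.27 on 2, 0.33 to 0.54 on 6, -0.28 to -0.20 on 11, 0.20 to 0.40 on 15 and 0.19 to 0.28 on 17. The 0 autosome counts past Fisher's exact test stayed 0.

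No paired analysis was possible because the replicate numbers follow accession order only. A fixed block on scan date could not be fitted, since no date held both models, and a random block on scan date was not run.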

Other observations

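A single probe outside the gene lists stood far from its neighbours. This Metapl1 probe on chromosome 2 was at 2.72, 3.07, 3.14, 0.11 and 2.98 in the MMTV-HRas tumors and at -2.81 and -3.18 in PyMT_11567 and PyMT_11570, while its segment was not raised to such a level in any of them. By their bins, the tumors most alike were Hras_An1_3 and Hras_An3_3 (r = 0.71) and PyMT_11567 and PyMT_11570 (r = 0.71, on the same slide). These correlations are over bins, which are not independent, within pairs of arrays.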
